A study of Homo sapiens with 2 samples.

Results

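Cholesterol is made from acetyl-CoA by a chain of enzymes, and the cell controls that chain through the SREBP transcription factors. The genes described here are 28 genes of this system: 18 enzymes of sterol synthesis, 5 SREBP factors and their regulators, and 5 genes of sterol transport, efflux, receptor decay and storage. They were chosen by their known roles from 28303 genes with a value in both libraries, and all 28 were matched by symbol. The cells were HGC27, an established human gastric cancer line. In 1 library the cells carried the plasmid pcDNA3.1 with LINC01133, a long non-coding RNA. In the other they carried the pcDNA3.1 control plasmid. Both were harvested 48 h after transfection. With 1 library per group no difference has a replicate check, no test between the conditions is possible, and every comparison describes these 2 libraries.

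Values are FPKM, counts of fragments scaled to a gene's exon length and a library's depth. The library with LINC01133 held 16302581 counted fragments and the control library 15666629. LINC01133 had an FPKM of 1.44 in the overexpression library (95% counting interval 1.13 to 1.81) and 0.0809 in the control (0.0220 to 0.207), from 74 fragments in the overexpression library and 4 in the control. LINC01133 itself is under the filter on low values used below. Of the epithelial markers with a value, 0 of 6 averaged 1 FPKM or more, and their summed FPKM was 0.994 in the overexpression library and 1.02 in the control. KRT18 was listed at 0 in both libraries. The gastric lineage markers TFF2 and MUC5AC were also listed at 0 in both, and 0 of 4 gastric markers reached that level. Of 4 mesenchymal markers 3 reached it, with a summed FPKM of 222 in the overexpression library and 205 in the control. Vimentin (VIM) had 210 FPKM in the overexpression library and 198 in the control. CDH2 had 0.0744 FPKM in the overexpression library and 0.0516 in the control. ZEB1, a mesenchymal transcription factor, had 7.82 FPKM in the overexpression library and 3.06 in the control, a log2 ratio of 1.12 on the scale used below that was 0.93 with the TMM scaling. With trends on transcript GC content and length over all genes subtracted, the highest log2 ratio of those 3 mesenchymal markers was 0.16. The label of a gastric cancer line is not borne out by epithelial or gastric transcripts. Of 3 blood and endothelial markers, 0 reached a mean of 1.

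The SREBP proteins are made as precursors in the membrane of the endoplasmic reticulum. When sterols are low, SCAP carries them to the Golgi, where they are cut and released to enter the nucleus. When sterols are high, the INSIG proteins hold SCAP back. SREBP-2, the product of SREBF2, mainly drives genes of sterol synthesis, and SREBP-1, the product of SREBF1, mainly drives fatty acid synthesis. Excess sterol is turned into ester by SOAT1 or exported through ABCA1, a target of the oxysterol receptors called LXR.

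The cholesterol genes did not shift as a block. Of the 27 averaging 1 FPKM or more, 13 were higher in the overexpression library than in the control and 14 lower. Among all 11945 genes at that level, 6619 were higher and 5326 were not, so a mix of directions is not particular to these genes. The log2 ratio used throughout is that of FPKM + 1, overexpression over control. At a threshold of 2-fold on that scale 4 genes were higher and 0 lower. The 4 were STARD4, IDI1, MSMO1 and SC5D. That is 14.8% of the 27 genes, near the 11.9% of all 11945 genes past the same filter that were at least 2-fold higher, and 0.444% of all genes were at least 2-fold lower. On the deposited scale the count is therefore not a result about these genes. Their median log2 ratio was -0.19, beside 0.10 over all genes, while their mean was 0.14. The summed FPKM of all 28 was 842 in the overexpression library and 856 in the control, so the total was nearly level while its makeup differed. In bulk RNA, fewer cells with a transcript and less of it per cell cannot be told apart.

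Other scalings of the libraries moved every log2 ratio of FPKM down, by 0.21 with the median of ratios, 0.21 with the trimmed mean of M values (TMM) and 0.42 with the upper quartile. The same 4 genes, again 14.8%, were at least 2-fold higher by the first and second of these, with 10 of 27 above 0. Among all 11945 genes past the filter, 5554 were above 0 by the median of ratios and 5509 by TMM. Of all genes, 7.88% were higher and 0.862% lower by the median of ratios, and 7.71% were higher and 0.896% lower by TMM, so the gap to all genes was wider than on the deposited scale. By the upper quartile 2 were higher (7.41%), STARD4 and IDI1, and 3 lower (11.1%), PMVK, MVD and EBP, beside 4.9% higher and 3.89% lower of all genes. With counts of 2 to 4 genes, these gaps were not tested. The signs of ACAT2, HSD17B7 and INSIG1 turned below 0 under all 3 scalings, and those of SQLE and MYLIP also under the upper quartile.

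**Figure D1:**
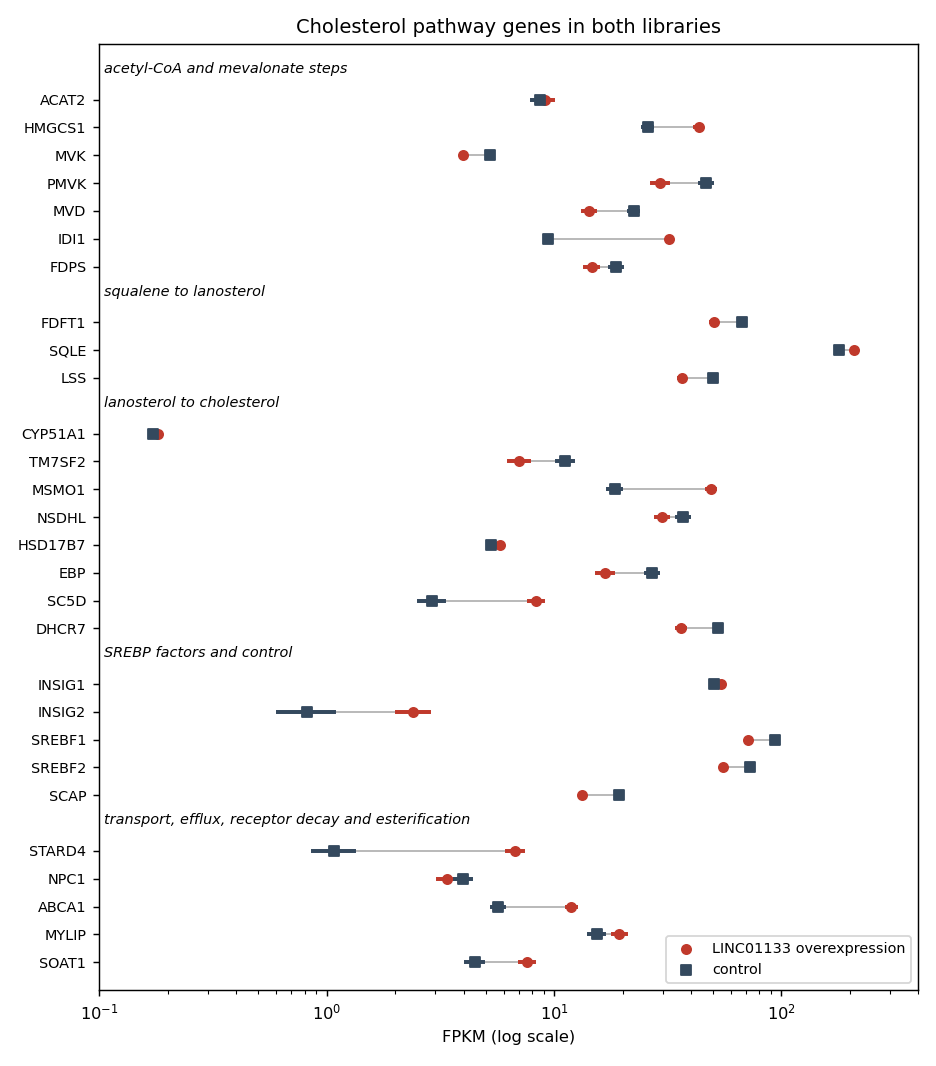
FPKM of each of the 28 genes on a log axis, by role, in the overexpression library (circles) and the control library (squares). Thick bars are 95% Poisson intervals of counting error, drawn where whole fragments were recovered. The widest gap is that of STARD4, at 6.76 in the overexpression library and 1.08 in the control.

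The promoters of the 4 genes at least 2-fold higher are shown with that of EBP, the gene with the lowest log2 ratio, and that of SREBF2. SREBF2 is shown because it held the sterol regulatory element core TCACNCCAC, the kind of element that SREBP binds. Each line is the 150 bases before the RefSeq start site, on the gene's strand, from GRCh38.p14. Capitals mark CCAAT on either strand, read as ATTGG on the other strand, and the sterol element core.
STARD4: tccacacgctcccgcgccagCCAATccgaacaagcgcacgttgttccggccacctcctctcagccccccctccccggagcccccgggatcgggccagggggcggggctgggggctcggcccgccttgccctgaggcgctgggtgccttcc
IDI1: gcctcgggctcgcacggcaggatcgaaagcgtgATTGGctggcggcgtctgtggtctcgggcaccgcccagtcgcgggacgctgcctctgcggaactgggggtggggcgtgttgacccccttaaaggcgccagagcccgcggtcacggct
MSMO1: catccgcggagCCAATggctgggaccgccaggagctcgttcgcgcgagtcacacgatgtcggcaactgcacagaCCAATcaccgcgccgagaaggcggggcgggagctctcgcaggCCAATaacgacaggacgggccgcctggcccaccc
SC5D: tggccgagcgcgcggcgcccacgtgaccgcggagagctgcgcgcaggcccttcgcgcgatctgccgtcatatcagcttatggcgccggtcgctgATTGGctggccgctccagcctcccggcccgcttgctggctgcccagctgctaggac
EBP: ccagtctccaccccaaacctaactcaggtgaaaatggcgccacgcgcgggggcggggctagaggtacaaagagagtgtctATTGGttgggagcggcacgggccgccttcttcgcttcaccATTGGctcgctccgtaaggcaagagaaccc
SREBF2: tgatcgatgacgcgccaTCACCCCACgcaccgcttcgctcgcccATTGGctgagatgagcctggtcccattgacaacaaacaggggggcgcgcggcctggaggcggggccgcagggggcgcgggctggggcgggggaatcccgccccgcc

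These stretches lie at chr5:111512536-111512685 on the minus strand for STARD4, chr10:1049120-1049269 on the minus strand for IDI1, and chr4:165327519-165327668 on the plus strand for MSMO1. Those of SC5D, EBP and SREBF2 lie at chr11:121292621-121292770, chrX:48521658-48521807 and chr22:41832955-41833104, all on the plus strand. In the full window, 250 bases before to 50 after the start, CCAAT on either strand was present in 17 of the 25 genes with a promoter in the RefSeq table, or 68%, against 34.6% of all 35116 promoters in the table and 36.6% of 15317 protein-coding genes with 1 promoter each. Those protein-coding genes were of any expression level, and the first promoter listed for each was used. The sets are thus not alike, and the gap was not tested. CCAAT is the box bound by NF-Y, a known partner of SREBP. Among synthesis enzymes it was present in 12 of 15. It was present in 9 of 11 genes with a log2 ratio above 0 and in 8 of 13 with a ratio not above 0. The sterol element core was present in 1 of 25 windows, SREBF2, in 1.13% of all promoters and in 1.18% of those protein-coding genes. The windows of INSIG1 and STARD4, described below as SREBP targets, had 0 matches. Lack of this exact core in a window therefore does not show that a gene lacks a sterol element. ACAT2, FDFT1 and SQLE had no promoter in the RefSeq table. The windows of STARD4 and IDI1 both had 69% G and C, that of MSMO1 69.7%, that of SC5D 67.3%, that of SREBF2 68% and that of EBP 58.3%. These matches describe letters and were not tested as sites.

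The first enzymes of the chain build mevalonate and then the 5-carbon units. HMGCS1, which condenses acetyl-CoA and acetoacetyl-CoA to HMG-CoA, had 43.3 FPKM in the overexpression library and 25.8 in the control, a ratio of 1.68 (95% counting interval 1.59 to 1.78). ACAT2, the thiolase that feeds it, had 9.15 FPKM in the overexpression library and 8.67 in the control. Its ratio of 1.05 (0.941 to 1.18) was the one ratio of 23 with an interval that could not be told from 1 by counting error. Of its exon bases 52.3% are shared with a gene on the opposite strand, so its value is uncertain.

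The kinases and the decarboxylase that turn mevalonate into isopentenyl diphosphate were all lower on the deposited scale. Phosphomevalonate kinase (PMVK) had 29.3 FPKM in the overexpression library and 46.6 in the control, a ratio of 0.628 (0.566 to 0.696). The decarboxylase MVD had 14.3 FPKM in the overexpression library and 22.4 in the control, a ratio of 0.638 (0.591 to 0.689). Mevalonate kinase (MVK) had 3.96 FPKM in the overexpression library and 5.26 in the control, without an interval because its values were not whole numbers of fragments. With trends on transcript GC content and length over all genes subtracted, its log2 ratio of -0.33 turned to 0.11. On the same calculation the log2 ratio of PMVK went from -0.65 to -0.13 and that of MVD from -0.61 to -0.07.

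IDI1, the isomerase that makes dimethylallyl diphosphate, stood out from its neighbours in the chain. It had 32.1 FPKM in the overexpression library and 9.37 in the control, a ratio of 3.43 with no interval for the same reason as MVK. FDPS, the next enzyme, which joins the 5-carbon units into farnesyl diphosphate, had 14.7 FPKM in the overexpression library and 18.7 in the control, a ratio of 0.784 (0.717 to 0.857). IDI1 thus stood at 2.19 times the FPKM of FDPS in the overexpression library and at 0.501 times in the control. The transcript of IDI1 has 41.1% GC and that of FDPS 55.1%. With the trends on GC content and length subtracted, the log2 ratio of IDI1 went from 1.68 to 1.01. That of FDPS went from -0.33 to 0.07. IDI1 lies on chromosome 10 from 1039152 to 1049170, on the minus strand, and 14.8% of its exon bases overlap IDI2-AS1 on the other strand, which had 0.0481 FPKM in the overexpression library and was listed at 0 in the control.

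The enzymes from farnesyl diphosphate to lanosterol were abundant in both libraries and, on the deposited scale, differed by less than 1.5-fold. SQLE, squalene epoxidase, was the highest of the 28, with 209 FPKM in the overexpression library and 180 in the control, a ratio of 1.16 (1.14 to 1.19). It made up 35.1% of the summed FPKM of the 18 synthesis enzymes in the overexpression library and 30.5% in the control. FDFT1, squalene synthase, had 50.6 FPKM in the overexpression library and 67.1 in the control, a ratio of 0.754 (0.724 to 0.785). LSS, which closes squalene epoxide into lanosterol, had 36.6 FPKM in the overexpression library and 49.8 in the control, a ratio of 0.734 (0.706 to 0.764). The log2 ratio of FDFT1 was -0.40 as deposited, -0.61 by TMM, -0.81 by the upper quartile and -0.40 with the trends subtracted. That of LSS was -0.44, -0.64, -0.84 and -0.07 in the same order. Without SQLE the other 17 enzymes summed to 387 FPKM in the overexpression library and 408 in the control.

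Of the 8 enzymes from lanosterol to cholesterol, MSMO1 and SC5D were higher and most others lower. MSMO1, the methyl oxidase that starts the removal of the C4 methyl groups, had 49.2 FPKM in the overexpression library and 18.5 in the control, a ratio of 2.66 (2.46 to 2.88). SC5D, the desaturase that places the C5 double bond, had 8.31 FPKM in the overexpression library and 2.90 in the control, a ratio of 2.86 (2.48 to 3.32). By the upper quartile their log2 ratios were 0.95 and 0.89, under 2-fold. MSMO1 lies on chromosome 4 from 165327623 to 165343160 and SC5D on chromosome 11 from 121292453 to 121308694, both on the plus strand, and neither shares exon bases with another gene.

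EBP, the sterol isomerase one step before SC5D in the chain, had 16.8 FPKM in the overexpression library and 26.9999 in the control, a ratio of 0.621 (0.563 to 0.686). DHCR7, the reductase one step after SC5D, had 36.1 FPKM in the overexpression library and 52.6 in the control, a ratio of 0.687 (0.652 to 0.724). SC5D was therefore the least abundant of these 3 in both libraries, and the gap was narrower in the overexpression library. With the trends on GC content and length subtracted, the log2 ratio of DHCR7 went from -0.53 to -0.11. That of EBP went from -0.66 to -0.34 and that of SC5D from 1.25 to 0.40.

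NSDHL, which acts with MSMO1 in removing the methyl groups, had 29.8 FPKM in the overexpression library and 36.8 in the control, a ratio of 0.810 (0.743 to 0.883). TM7SF2, a sterol C14 reductase, had 7.02 FPKM in the overexpression library and 11.2 in the control, a ratio of 0.626 (0.549 to 0.712). With the same trends subtracted, the log2 ratio of NSDHL went from -0.30 to -0.14 and that of TM7SF2 from -0.61 to -0.07. HSD17B7, the keto reductase of the same methyl removal, had 5.79 FPKM in the overexpression library and 5.29 in the control. It has no interval, and near-identical pseudogene copies make its value uncertain. CYP51A1, the lanosterol demethylase, had 0.181 FPKM in the overexpression library and 0.172 in the control and was the only gene of the 28 under the filter. Of its exon bases 83.2% overlap another annotated gene, 79.4% on the same strand, so the amount of its transcript cannot be read from these values.

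The SREBP factors were abundant and both were lower in the overexpression library by nearly the same factor. SREBF1 had 71.3 FPKM in the overexpression library and 93.5 in the control, a ratio of 0.763 (0.743 to 0.784). SREBF2 had 55.4 FPKM in the overexpression library and 72.9 in the control, a ratio of 0.760 (0.736 to 0.785). SREBF1 stood at 1.29 times the FPKM of SREBF2 in the overexpression library and at 1.28 times in the control. SCAP had 13.3 FPKM in the overexpression library and 19.4 in the control, without an interval. The log2 ratios of SREBF1, SREBF2 and SCAP were -0.39, -0.39 and -0.51, and 0.05, -0.07 and -0.07 after subtraction of the trends on GC content and length.

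As deposited, the INSIG paralogues differed from each other. INSIG2 had 2.41 FPKM in the overexpression library (95% counting interval 2.04 to 2.82) and 0.824 in the control (0.614 to 1.08), from 155 fragments in the overexpression library and 51 in the control, a ratio of 2.92 (2.12 to 4.09). INSIG1, which is itself a target of SREBP, had 54.1 FPKM in the overexpression library and 50.6 in the control, a ratio of 1.07 (1.02 to 1.12). INSIG1 remained the more abundant paralogue, at 22.5 times the FPKM of INSIG2 in the overexpression library and 61.4 times in the control. The log2 ratio of INSIG2 was 0.90, just under the threshold, because adding 1 FPKM weighs on a gene this low. With a prior of 10 fragments in place of 1 FPKM it was 1.38, and after subtraction of the trends on GC content and length it was -0.11. The log2 ratio of INSIG1 was 0.09 as deposited and also -0.11 with those trends subtracted, so the paralogues did not differ on that calculation.

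Among the roles of the 28 genes, transport and storage was the one whose median lay above the 0.10 of all genes, at 0.65 over 5 genes. Of the 5, 4 were higher, beside 6619 of all 11945 genes. Other lists described below also had medians above 0.10: other sterol carriers and the non-sterol isoprenoid branch 0.45 each, SREBP processing 0.24 and fatty acid synthesis 0.18. LXR factors and targets lay below it, at -0.30, as did the 1 oxysterol enzyme past the filter, at -0.35. By the upper quartile the median of transport and storage was 0.29 with 3 of 5 above 0. After subtraction of the trends on GC content and length it was 0.11, beside 0.08 over all genes, with 3 of 5 above 0 and 0 past 2-fold. STARD4, a soluble carrier that moves sterol between membranes and a target of SREBP-2, had 6.76 FPKM in the overexpression library (95% counting interval 6.24 to 7.31) and 1.08 in the control (0.873 to 1.32), from 626 fragments in the overexpression library and 96 in the control. Its ratio of 6.27 (5.05 to 7.85) was the largest of the 28. STARD4 lies on chromosome 5 from 111496033 to 111512590 on the minus strand, and its antisense neighbour STARD4-AS1, which shares 2.18% of its exon bases, had 2.42 FPKM in the overexpression library and 1.36 in the control.

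ABCA1, the exporter of sterol to apolipoproteins, had 11.9 FPKM in the overexpression library and 5.66 in the control, a ratio of 2.11 (1.95 to 2.27) and a log2 ratio of 0.96, just under the threshold. MYLIP, a ubiquitin ligase that marks lipoprotein receptors for decay and is also an LXR target, had 19.4 FPKM in the overexpression library and 15.4 in the control, a ratio of 1.26 (1.14 to 1.39). SOAT1, the acyltransferase that stores sterol as ester, had 7.61 FPKM in the overexpression library and 4.47 in the control, a ratio of 1.70 (1.52 to 1.90). NPC1, which moves cholesterol out of the lysosome, was lower, with 3.37 FPKM in the overexpression library and 3.98 in the control, a ratio of 0.847 (0.754 to 0.9504). STARD4 thus stood at 2.005 times the FPKM of NPC1 in the overexpression library and at 0.271 times in the control. The transcript of STARD4 has 34.2% GC and that of NPC1 50.3%. With the trends on GC content and length subtracted, the log2 ratio of STARD4 went from 1.90 to 0.60. That of NPC1 went from -0.19 to -0.15.

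Across the 27 genes the log2 ratio followed the base composition of the transcript. Every gene with a log2 ratio above 0 had a transcript GC content between 34.2% and 50.2%, and every gene with a ratio not above 0 one between 48.6% and 65.6%. The sets overlap in a narrow range that holds FDFT1 at 48.6% and ACAT2 at 50.2%. STARD4 was the most AT-rich at 34.2%, followed by INSIG2 at 36.9%, MSMO1 at 38.1%, SC5D at 38.6%, SOAT1 at 39.97% and HMGCS1 at 40.2%. MVD was the most GC-rich at 65.6%. The Spearman correlation with GC content was -0.897 over the 27 genes, which share both libraries, and -0.800 over all 11913 genes with a GC value. It was -0.861 with the GC content of the coding sequence and -0.793 with that of the 3′ UTR. These are descriptions across genes, which are not replicates.

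**Figure D2:**
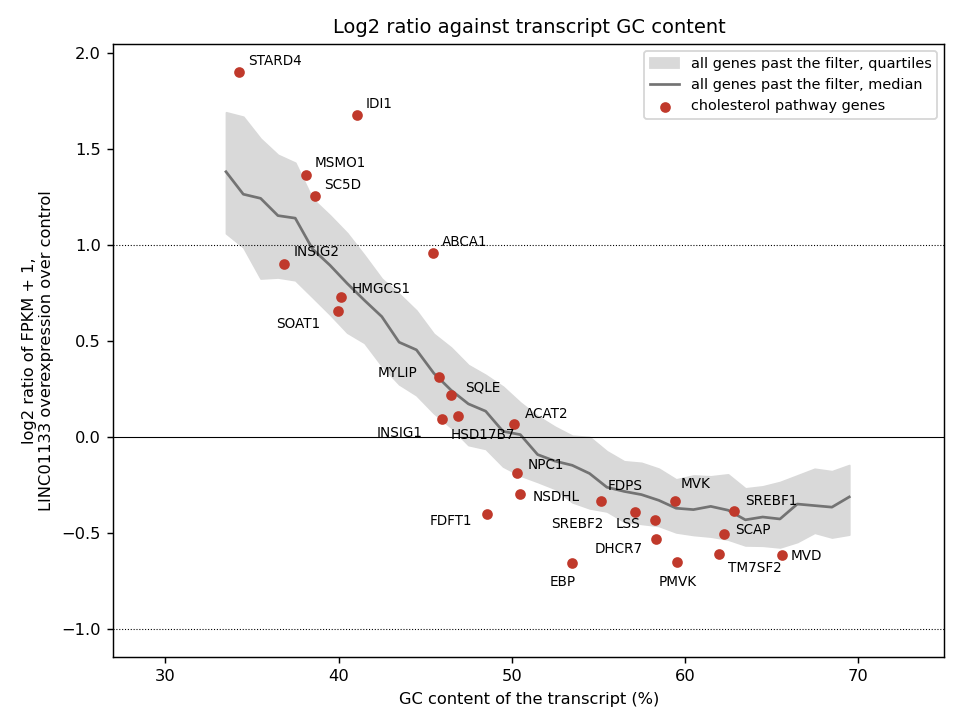
Log2 ratio of FPKM + 1, overexpression over control, against the GC content of the transcript for the 27 genes past the filter. The grey line and band are the median and quartiles of all genes past the filter in bins of 1 percentage point with at least 20 genes. The 4 genes above the upper dotted line of 2-fold lie at 34.2% to 41.1% GC, and the genes above 50.2% GC all lie below 0.

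Many of the log2 ratios lay within the spread of other genes of like composition. Between 34.2% and 41.1% GC, the range of the 4 genes past 2-fold, 47.5% of 2187 genes were at least 2-fold higher, and 4 of the 7 cholesterol genes. Set against the genes within 1 percentage point of the same GC content, 14 of the 27 lay between the quartiles, 5 above and 8 below. Quartiles cut any set of genes into 4 equal parts. These counts are near what that definition gives and are not a result about these genes. IDI1 lay above, at 1.68 beside an upper quartile of 0.99 and a median of 0.74. ABCA1 lay above, at 0.96 beside an upper quartile of 0.55. STARD4, MSMO1 and SC5D also lay above the upper quartile, at 1.90 beside 1.70, 1.36 beside 1.32 and 1.25 beside 1.24. The 8 below were PMVK, MVD, FDFT1, TM7SF2, NSDHL, EBP, DHCR7 and NPC1. EBP and FDFT1 lay farthest below, EBP at -0.66 beside a lower quartile of -0.34 and FDFT1 at -0.40 beside -0.10.

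With the trends on GC content and length subtracted, 1 of the 27 genes, or 3.7%, was at least 2-fold higher and 0 lower, beside 1.65% higher and 0.797% lower of the 11913 genes with a GC value. The gene was IDI1, at a log2 ratio of 1.01. ABCA1 was at 0.63, STARD4 at 0.60, MSMO1 at 0.48 and SC5D at 0.40. At the other end stood FDFT1 at -0.40 and EBP at -0.34. HMGCS1, SOAT1, INSIG1 and INSIG2 turned below 0, and MVK, FDPS and SREBF1 above. Subtracting a trend on the GC content of the coding sequence instead, a choice made after seeing the data, put IDI1 at 0.59 and STARD4 at 0.96, left 0 genes past 2-fold and turned MSMO1 to -0.06. On that calculation 2.47% of all 10338 genes with a value were at least 2-fold higher and 0.145% lower. How far base composition accounts for the differences was not tested further.

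**Figure D3:**
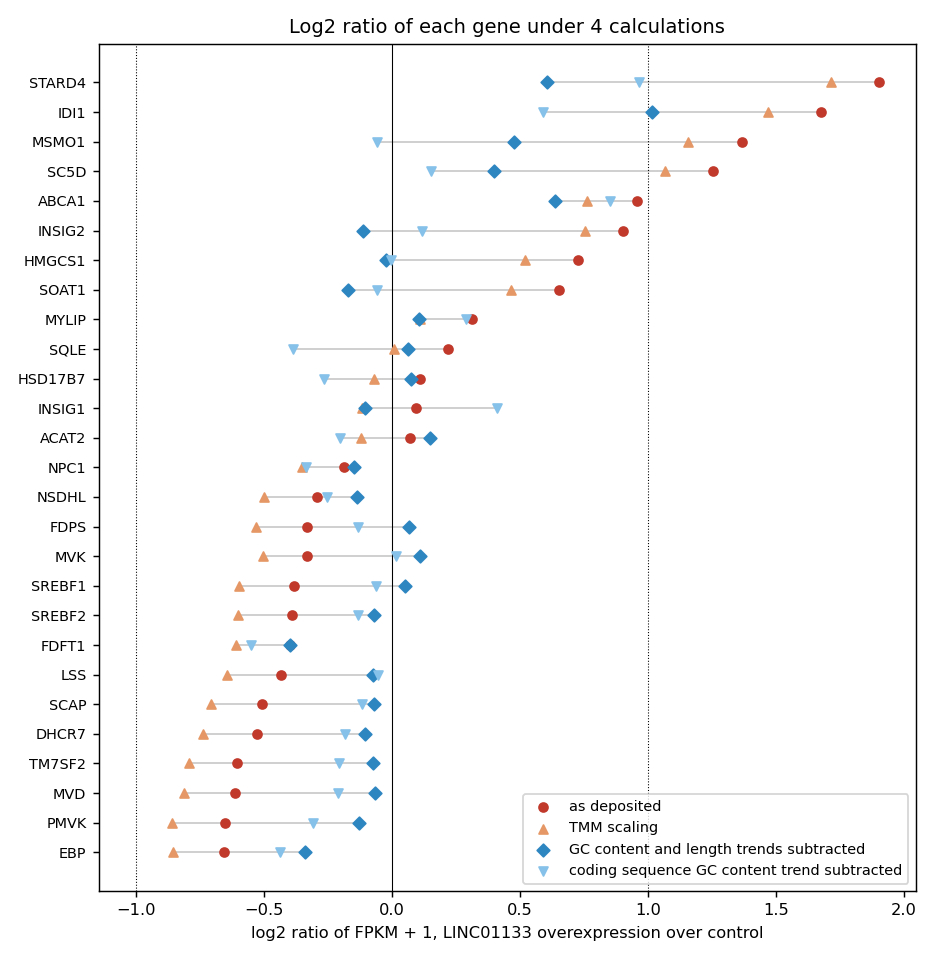
Log2 ratio of FPKM + 1, overexpression over control, of the 27 genes under 4 calculations: as deposited, with TMM scaling, after subtraction of the trends on GC content and length and with the trend on coding sequence GC content subtracted. Dotted lines mark 2-fold. IDI1 is the one gene at or past 2-fold in 3 of the 4, and EBP and FDFT1 are among 11 genes below 0 in all 4.

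Neighbouring pathways also held genes on both sides of 0. Of 12 genes of SREBP processing and sterol-dependent protein decay, 1 (8.33%, beside 11.9% of all genes) was at least 2-fold higher and 0 lower, with a median log2 ratio of 0.24 that turned to -0.16 by the upper quartile. By TMM 0 passed 2-fold. RNF139, an endoplasmic reticulum ubiquitin ligase, had 144 FPKM in the overexpression library and 71.0 in the control, a ratio of 2.03 (1.94 to 2.12). PAQR3, which anchors SCAP and SREBP to the Golgi, had 1.85 FPKM in the overexpression library and 0.571 in the control, and 45.5% of its exon bases overlap a gene on the other strand. MBTPS2, the site-2 protease, had 2.62 FPKM in the overexpression library and 1.07 in the control, while MBTPS1, the site-1 protease, had 5.99 FPKM in the overexpression library and 6.37 in the control. The log2 ratio of RNF139 was 1.01, then 0.72 with the trends subtracted, that of PAQR3 0.86, then -0.42, and that of MBTPS2 0.81, then -0.35.

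Of 13 genes of fatty acid synthesis, the branch driven mainly by SREBP-1, 1 (7.69%, beside 11.9% of all genes) was at least 2-fold higher and 0 lower, with a median of 0.18 that turned to -0.03 by TMM, where 0 passed 2-fold. ACSL3, an acyl-CoA synthetase, had 29.6 FPKM in the overexpression library and 13.2 in the control, a ratio of 2.24 (2.11 to 2.38), and GPAM, the first enzyme of glycerolipid synthesis, had 1.97 FPKM in the overexpression library and 0.612 in the control. Among the abundant enzymes, the desaturase SCD had 617 FPKM in the overexpression library and 645 in the control. FASN, fatty acid synthase, had 118 FPKM in the overexpression library and 177 in the control, a ratio of 0.669 (0.656 to 0.682). With the trends subtracted 0 of the 13 passed 2-fold. The log2 ratio of ACSL3 was 1.10, then 0.11 with the trends subtracted, and that of GPAM 0.88, then 0.16. That of SCD was -0.06, then -0.23, and that of FASN -0.58, then -0.17.

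Of 6 LXR factors and targets past the filter besides ABCA1 and MYLIP, 0 passed 2-fold in either direction. Among all genes 11.9% passed it upwards and 0.444% downwards, so 0 of 6 is not a result about this list. As deposited 5 of the 6 had a log2 ratio below 0, beside 5326 of all 11945 genes not above 0. By TMM all 6 did, beside 6436 of all genes, and these gaps were not tested. With the trends subtracted 3 of the 6 were above 0 and 3 below. Their median moved to -0.02 there, against -0.30 as deposited. ABCG1, another sterol exporter and LXR target, had 13.6 FPKM in the overexpression library and 18.3 in the control, a ratio of 0.740 (0.689 to 0.795), so it differed in direction from ABCA1. NR1H2, which encodes LXR-beta, had 7.89 FPKM in the overexpression library and 12.2 in the control, a log2 ratio of -0.57 that was -0.09 with the trends subtracted.

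Of 15 other sterol carriers, lysosomal genes and ester hydrolases past the filter, 1 (6.67%, beside 11.9% of all genes) was at least 2-fold higher and 0 lower, with a median of 0.45. By the upper quartile the median was 0.10, with 1 higher and 1 lower, and with the trends subtracted it was 0.10, with 0 past 2-fold. The higher gene was OSBPL8, a lipid exchanger at contacts between the endoplasmic reticulum and the plasma membrane, with 9.70 FPKM in the overexpression library and 1.499 in the control, a ratio of 6.47 (5.61 to 7.503). Its log2 ratio of 2.099 was 0.88 with the trends subtracted. SCP2, a sterol carrier protein, had 3.55 FPKM in the overexpression library and 1.58 in the control, and 20.7% of its exon bases overlap another gene.

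**Figure D4:**
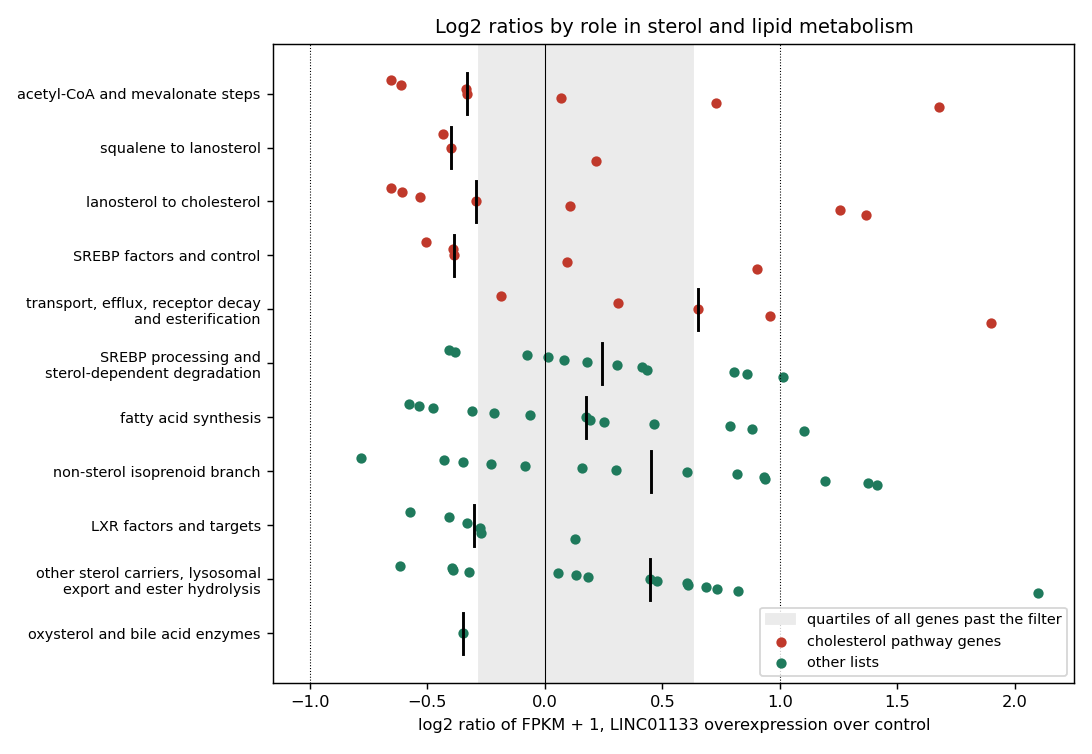
Log2 ratio of FPKM + 1, overexpression over control, of single genes past the filter by role, for the cholesterol genes (red) and for other lists of sterol and lipid metabolism (green). Black bars are medians, the grey band spans the quartiles of all genes past the filter, -0.28 to 0.63, and dotted lines mark 2-fold. Transport and storage has the highest median, 0.65, and squalene to lanosterol the lowest, -0.40.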

How the data were processed

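RNA of HGC27 cells was selected by poly(A) tail before sequencing, per the labels' protocols. The deposited files give a value for each gene, read here as FPKM because value times merged exon length in GENCODE 29 was a whole number of fragments, within 0.02, for 94.4% of genes with a length in the overexpression library and 94.5% in the control. That step gave each depth. GRCh38 was the build, and HTSeq 0.6.0, HISAT2 2.1.0 and Bowtie2 2.2.3 are named, per the submitters' processing notes. What each tool did, the strand setting and the handling of overlapping genes are not given in the sources used here, so values of overlapping genes are uncertain.

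Here the log2 ratio of FPKM + 1 was computed with Python 3.11.15 for genes averaging 1 FPKM or more. No test between conditions was run. Intervals are exact (Poisson, and Clopper-Pearson for ratios, scipy 1.17.1), at 95%, and cover counting error only. Trends were fitted by lowess (statsmodels 0.14.6, span 0.3) on the GC content and length of each gene's longest coding transcript that has a 3′ UTR, or its longest transcript where it has none. The calculation was checked on simulated data. Promoters are those of RefSeq on GRCh38.p14. For the cholesterol genes the one nearest the GENCODE 5′ end was used, and for the protein-coding genes beside them the first one listed. Genes named outside the 28 are LINC01133, cell type markers and the 2 with the largest absolute log2 ratio in each list. MBTPS1, MBTPS2, SCD and FASN were chosen after their values were seen. Alternatives were 3 scalings, a pseudocount of 0.1, a prior of 10 fragments, other filters and thresholds and subtracted trends, of which that on coding sequence GC content was chosen after seeing the data. The members and lists were chosen with earlier results of these data known.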

Additional observations from a re-analysis of the deposited data

How the results depend on the processing

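Where a value moved, the cause was not tested. The 4 cholesterol genes at least 2-fold higher became 2 by the upper quartile, 1 with the GC content trend subtracted, 1 after subtraction of the trends on GC content and length, 0 with the coding sequence trend subtracted, 8 at a threshold of 1.5-fold and 0 at 4-fold. The 0 lower genes became 3 by the upper quartile and 4 at 1.5-fold. The share of all genes past 1.5-fold is not given here, so the counts at that threshold have no background beside them. The median log2 ratio of -0.19 became -0.50 by the upper quartile, -0.0237 with the GC content trend subtracted and -0.0680 with both trends, and the mean was 0.14. The count of higher genes stayed within 1.5 times of 4 by the median of ratios and TMM (4 each), with a pseudocount of 0.1 (6) and a prior of 10 fragments (6), with no filter (4), at a mean FPKM of at least 5 (3) and with an interval that leaves out 1 (3). The log2 ratio of MSMO1, 1.36 as deposited, reversed to -0.0590 with the coding sequence trend subtracted. No paired analysis was possible because the overexpression and control groups have 1 library each. Counting error is widest for the low genes, such as INSIG2 with 51 fragments and STARD4 with 96 in the control.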

Other observations

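The branch that takes isoprenoids away from sterols held genes of both directions. Of 14 genes of protein prenylation, dolichol and coenzyme Q synthesis, 3 passed 2-fold upwards (21.4%, beside 11.9% of all measured genes) and 0 downwards as deposited, with a median log2 ratio of 0.45. By TMM 2 were higher, where 7.71% of all genes were, by the upper quartile 1 was higher and 1, RABGGTA, lower, and after subtraction of the trends on GC content and length 0 were. NUS1, a subunit of the dolichol-making prenyltransferase, had 12.8 FPKM in the overexpression library and 4.19 in the control, a ratio of 3.06 (95% counting interval 2.69 to 3.49). ZMPSTE24, the protease that processes farnesylated prelamin A, had 34.2 FPKM in the overexpression library and 12.5 in the control, a ratio of 2.72 (2.50 to 2.97). The subunits of the Rab prenyltransferase differed in direction: RABGGTB had 22.1 FPKM in the overexpression library and 9.13 in the control, and RABGGTA had 9.85 FPKM in the overexpression library and 17.7 in the control. With the trends subtracted the log2 ratios of NUS1 and ZMPSTE24 were 0.43 each, that of RABGGTB 0.35 and that of RABGGTA -0.29. RABGGTA and RABGGTB were chosen after their values were seen.

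Of 6 oxysterol and bile acid enzymes with a value, 1 was past the filter. HSD3B7 had 0.811 FPKM in the overexpression library and 1.30 in the control, from 33 fragments in the overexpression library and 51 in the control, and 64.6% of its exon bases overlap a gene on the other strand.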
